A study of Mus musculus with 12 samples.

Results

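Antiviral interferon-stimulated genes were followed in mouse melanomas that had been injected with interleukin-2 and interleukin-12 fused to a collagen-binding protein. The genes were Ifit1, Ifit2, Ifit3, Isg15, Isg20, Mx1, Mx2, Oas2, Oas3 and Oasl1, 10 of the 750 genes under study on an immune panel of the nCounter system, which counts RNA molecules with bar-coded probes and no amplification. They were taken by probe name, and 9 of them lay above background in all 12 tumors; Mx1 lay below it in all 12. RNA came from formalin-fixed, paraffin-embedded flank tumors of B16F10, a mouse melanoma line, grown in C57BL/6 mice.

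There were 4 groups of 3 mice with 1 tumor each, and the first injection went into tumors on day 6 after inoculation. Repeat-dose tumors received both cytokines at the start and again 6 days later, and were removed 2 days after the second dose, which was 8 days after the first. Late single-dose tumors received the cytokines once and were removed 8 days later. Early single-dose tumors received them once and were removed 2 days later. Saline tumors were injected with saline and were removed 2 days later. Repeat-dose and late single-dose tumors were thus of the same age, as were early single-dose and saline tumors. No saline tumor was kept until day 8, so a difference of day-8 tumors from saline mixes treatment with 6 more days of growth, which cannot be told apart. The design text gives 4 mice for the repeat-dose cohort in 1 place; 3 were analysed here. The letters A, B and C below name the tumors of a group. No label says that a letter marks a shared litter, batch or day.

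Interferons are secreted proteins that bind receptors on nearby cells and switch on genes that block the growth of viruses. Type I and type III interferons act through a transcription factor complex that includes STAT2 and IRF9 and binds a DNA motif called the interferon-stimulated response element (ISRE). Interferon-gamma, a product of natural killer (NK) cells and T cells that interleukin-12 is known to induce, acts through another motif, the gamma-activated site (GAS), and raises IRF1, which can bind ISRE motifs too. The genes of this group are read as a record of interferon exposure of the cells of a tissue, in tumor cells and in immune cells alike.

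The promoter windows of the 4 members that held an ISRE core are shown for that motif, and 1 window of Isg20, which held none, is shown for its GAS core. RefSeq windows of assembly GRCm38.p6, from 250 bases before to 50 bases after a gene's start, were at hand for 7 of the 10 members; Mx1, Mx2 and Oas2 had no entry. The core searched was GAAANNGAAA, and the GAS core was TTCNNNGAA, each on both strands, and no base was shared by matches of both motifs in any member's window. Capitals mark ISRE cores in the first 4 sequences and the GAS core in that of Isg20.
Isg15, chr4:156200769-156201068, minus strand: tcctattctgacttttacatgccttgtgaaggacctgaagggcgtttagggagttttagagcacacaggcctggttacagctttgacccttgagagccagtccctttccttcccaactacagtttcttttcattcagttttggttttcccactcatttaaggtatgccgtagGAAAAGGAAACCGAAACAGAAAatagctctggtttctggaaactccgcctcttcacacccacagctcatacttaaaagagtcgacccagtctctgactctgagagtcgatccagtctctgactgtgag
Ifit1, chr19:34640639-34640938, plus strand: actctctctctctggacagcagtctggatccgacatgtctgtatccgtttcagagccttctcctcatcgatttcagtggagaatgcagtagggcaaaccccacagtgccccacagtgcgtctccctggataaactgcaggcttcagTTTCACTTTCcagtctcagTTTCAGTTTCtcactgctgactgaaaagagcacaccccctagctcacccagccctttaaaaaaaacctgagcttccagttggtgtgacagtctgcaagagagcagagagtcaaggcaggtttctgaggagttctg
Ifit3, chr19:34583279-34583578, plus strand: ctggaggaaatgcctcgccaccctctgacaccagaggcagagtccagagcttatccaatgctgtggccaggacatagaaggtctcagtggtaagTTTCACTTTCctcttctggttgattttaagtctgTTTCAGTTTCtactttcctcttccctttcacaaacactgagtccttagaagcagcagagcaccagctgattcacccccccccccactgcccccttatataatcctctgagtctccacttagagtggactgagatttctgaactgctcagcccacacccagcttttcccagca
Oas3, chr5:120777610-120777909, minus strand: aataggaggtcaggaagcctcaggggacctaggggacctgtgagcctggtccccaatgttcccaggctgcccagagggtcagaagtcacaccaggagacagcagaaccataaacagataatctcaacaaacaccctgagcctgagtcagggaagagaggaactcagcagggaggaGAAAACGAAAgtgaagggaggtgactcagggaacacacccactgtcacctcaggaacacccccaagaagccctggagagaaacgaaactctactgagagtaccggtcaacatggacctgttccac
Isg20, chr7:78913174-78913473, plus strand, the first of 3 windows: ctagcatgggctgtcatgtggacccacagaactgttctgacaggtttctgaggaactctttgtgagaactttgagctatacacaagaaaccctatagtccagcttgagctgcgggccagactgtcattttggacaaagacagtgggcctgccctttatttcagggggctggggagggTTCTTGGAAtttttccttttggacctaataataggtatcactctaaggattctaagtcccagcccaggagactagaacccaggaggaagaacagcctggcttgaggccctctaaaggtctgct

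The Isg15 window held 3 overlapping cores, whose first bases lay 78, 72 and 66 bases before the gene's start. In Ifit1 the cores began 104 and 85 bases before the start, and in Ifit3 they began 156 and 122 bases before it. Oas3 held 1 core, 75 bases before its start. The windows of Ifit2, Isg20 and Oasl1 held no ISRE core. A GAS core stood in 1 of the 3 Isg20 windows, 73 bases before the start, and in 1 of the Ifit2 windows, 241 bases before it. Of all 32851 promoter windows, 3.44% held the ISRE core and 8.30% held the GAS core. Counted by gene, 4 of 7 members with a window held an ISRE core, against 8.49% of the other panel genes. The core was also frequent in related sets, in 10 of 23 listed other interferon-stimulated genes with a window (43.5%) and 9 of 21 genes of the interferon-gamma axis (42.9%), and nothing particular to the members is read from it. These are matches of letters, not measured binding sites.

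Counts are given after scaling by the geometric mean of the 20 housekeeping probes of a tumor (scaled counts), and they compare tumors for 1 gene, not genes with each other. The total count of the panel genes ran from 392596 to 1232726 per tumor. The housekeeping geometric mean itself was 919 ± 341 in repeat-dose, 1467 ± 221 in late single-dose, 1716 ± 410 in early single-dose and 2680 ± 363 in saline tumors (SD, n = 3 each), so scaling raised the values of treated tumors relative to saline. The median log2 fold change of all 729 genes tested was accordingly 0.56 in early single-dose tumors against saline tumors. Changes relative to that median are given where they bear on a result.

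The IFIT genes encode proteins with tetratricopeptide repeats that bind viral RNA or translation factors. In tumors A, B and C, Ifit1 had 1048, 1257 and 687 scaled counts after repeat dosing, 394, 163 and 1006 in late single-dose tumors, 636, 659 and 565 in early single-dose tumors, and 222, 119 and 128 after saline. Ifit2 had 3015, 3786 and 2276 scaled counts in repeat-dose, 1069, 572 and 3215 in late single-dose, 2689, 3433 and 2789 in early single-dose, and 584, 456 and 566 in saline tumors A, B and C. Ifit3 had 6437, 8946 and 5465 scaled counts in repeat-dose, 2098, 905 and 8199 in late single-dose, 5142, 6621 and 5335 in early single-dose, and 943, 490 and 554 in saline tumors. For all 3 IFIT genes every early single-dose tumor lay above every saline tumor, as for 49.9% of all genes. The late single-dose tumors were spread: C was as high as the repeat-dose tumors, B was near saline and A lay between. The sources used here do not say whether the Ifit3 probe also counts RNA of the near-identical gene Ifit3b.

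Isg15 encodes a ubiquitin-like protein that is attached to other proteins, and Isg20 encodes an exonuclease that degrades RNA. Isg15 had 2324, 2427 and 1956 scaled counts in repeat-dose tumors A, B and C, 902, 455 and 1964 in late single-dose tumors, 2080, 2389 and 2238 in early single-dose tumors, and 579, 252 and 268 in saline tumors. Isg20 had 808, 1041 and 995 scaled counts in repeat-dose, 519, 322 and 718 in late single-dose, 1107, 1219 and 1068 in early single-dose, and 570, 238 and 282 in saline tumors. These were the only members whose 3 late single-dose tumors all lay below all 3 early single-dose tumors, tumor C included. That was the case for 4.12% of all genes.

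The OAS genes encode enzymes that make 2′,5′-linked oligoadenylates, the activator of the RNA-degrading enzyme RNase L; Oasl1 encodes a related protein without that activity, known in mice to block translation of Irf7. Oas2 had 607, 450 and 349 scaled counts in repeat-dose tumors A, B and C, 297, 125 and 587 in late single-dose tumors, 543, 493 and 334 in early single-dose tumors, and 326, 122 and 102 in saline tumors. Oas3 had 373, 309 and 274 scaled counts in repeat-dose, 91.3, 73.9 and 276 in late single-dose, 218, 327 and 189 in early single-dose, and 62.8, 40.6 and 55.9 in saline tumors. Oasl1 had 780.0, 494 and 390 scaled counts in repeat-dose, 226, 128 and 497 in late single-dose, 496, 521 and 353 in early single-dose, and 168, 93.7 and 85.4 in saline tumors. Oas3 was the only member whose late single-dose tumors all lay above all saline tumors, which was the case for 42.5% of all genes. Oas2 came closest to overlap between early single-dose and saline tumors, with 334 in early single-dose tumor C and 326 in saline tumor A.

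Mx1 and Mx2 encode dynamin-like GTPases that trap viral components. RefSeq lists both as transcribed pseudogenes in the mouse reference assembly, and most laboratory mouse strains, C57BL/6 among them, are known to carry inactive copies. Mx2 RNA was nevertheless counted above background in 12 of 12 tumors, with 372, 288 and 306 scaled counts in repeat-dose, 151, 103 and 350 in late single-dose, 322, 264 and 222 in early single-dose, and 124, 61.7 and 72.7 in saline tumors A, B and C. All Mx2 values in early single-dose tumors lay above all saline values, as for the other members tested and for 49.9% of all genes. Mx1 had between 7 and 13 raw counts in every tumor, under the background limit of each, and was not tested. For Mx1 and Mx2 the transcript named for the probe is not among those that RefSeq lists for the gene.

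**Figure D1:**
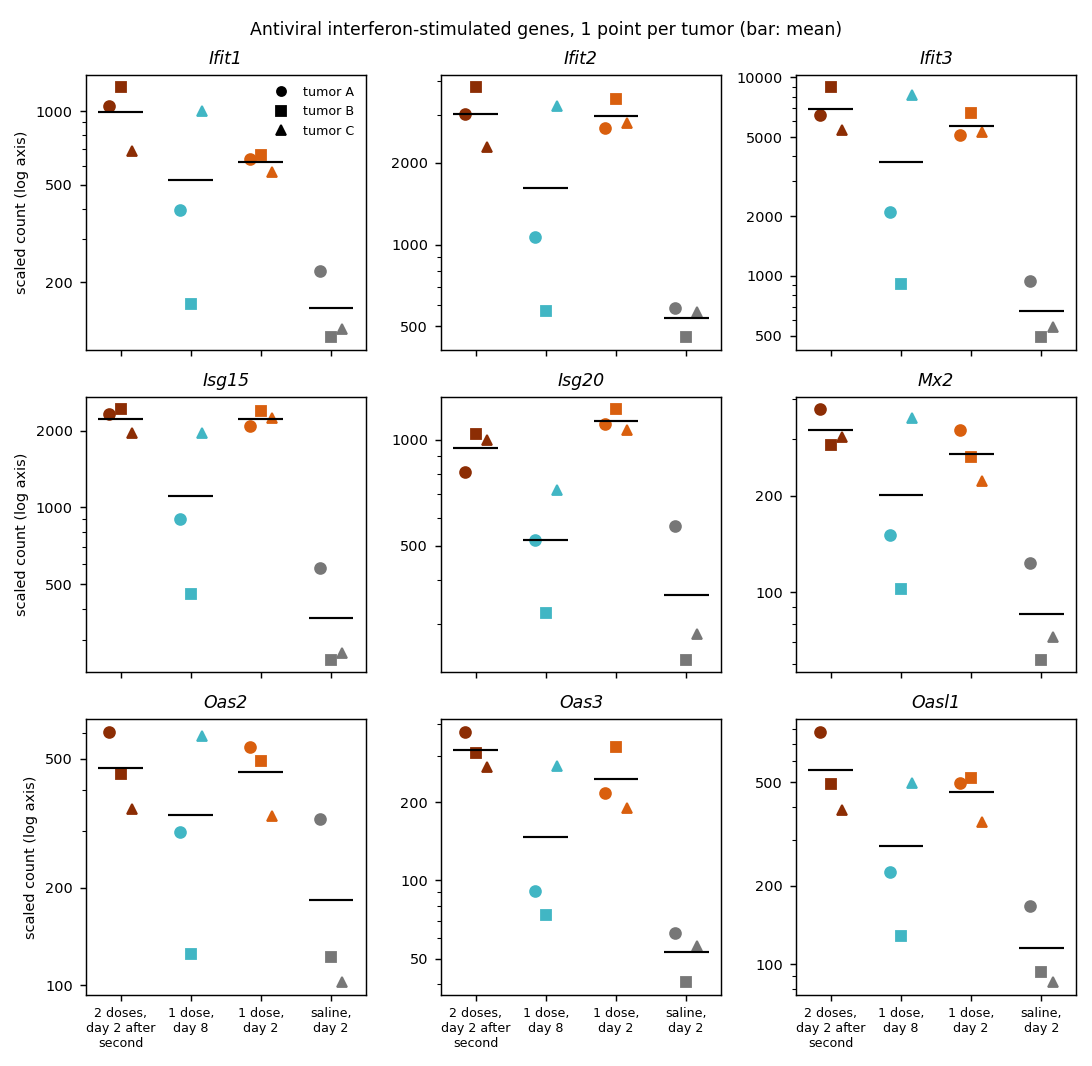
Scaled counts of the 9 members above background, on a log axis, with 1 point per tumor (circle A, square B, triangle C) and a bar at the mean of each group of 3. Late single-dose tumor C stands with the repeat-dose and early single-dose tumors in the panels other than that of Isg20, while tumor B stands near saline.

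Across the 4 groups, 8 of the 9 members tested differed in edgeR's joint quasi-likelihood test at an adjusted p under 0.05, where 48.8% of all 729 genes did. Oas2 was the exception, with an edgeR adjusted p of 0.216. The count fell to 3 members without saline tumor B, to 4 without saline tumor C and to 2 with scaling by the positive controls alone. The share of all genes fell in the same settings, to 23.7%, 32.2% and 14.8%. With total-count scaling 6 members differed, where 46.2% of all genes did.

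The first comparison asks what a single dose did within 2 days. All 9 members had higher means in early single-dose tumors than in saline tumors. Of all 729 genes, 588 had a log2 fold change above 0. At an adjusted p under 0.05, 8 of 9 members rose, where 30.5% of all genes rose. In every one of the 9 the 3 treated tumors lay above the 3 saline tumors, as they did for 49.9% of all genes. The members' median log2 fold change was 1.99, or 1.43 relative to the median of all genes.

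Ifit3 rose most, with 5699 ± 804 scaled counts in early single-dose and 662 ± 245 in saline tumors (SD, n = 3 each), an 8.60-fold change (log2 3.10 ± 0.69 SE, edgeR adjusted p = 0.00856). Isg15 rose 6.10-fold, with 2235 ± 154 scaled counts against 367 ± 184 (log2 2.61 ± 0.50 SE, edgeR adjusted p = 0.00504). Ifit2 rose 5.54-fold (log2 2.47 ± 0.53 SE, edgeR adjusted p = 0.00768) and Oas3 rose 4.61-fold (log2 2.20 ± 0.47 SE, edgeR adjusted p = 0.00761). Ifit1 and Oasl1 rose 3.96-fold and 3.95-fold, with edgeR adjusted p of 0.0217 and 0.0134. Mx2 rose 3.13-fold and Isg20 rose 3.12-fold, with edgeR adjusted p of 0.0177 and 0.00844. Oas2 had 457 ± 109 scaled counts in early single-dose and 183 ± 124 in saline tumors (SD, n = 3 each), a log2 difference of 1.32 ± 0.57 SE that did not pass (edgeR adjusted p = 0.100).

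These calls leaned on the saline tumors, of which A was the highest in 9 of 9 members, as it was in 72.0% of all genes. Without saline tumor A all 9 members rose, where 32.9% of all genes did. Without saline tumor B or C 5 of 9 members rose, where 11.9% and 14.3% of all genes did. Scaling by the positive controls alone left 4 members past the threshold (Ifit2, Ifit3, Isg15 and Oas3), where 11.7% of all genes rose. Total-count scaling left 6, where 15.5% of all genes rose. With TMM scaling the same 8 members rose, where 19.6% of all genes did, while the split over all genes changed to 143 that rose and 54 that fell, from 222 and 5 with housekeeping scaling.

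**Figure D2:**
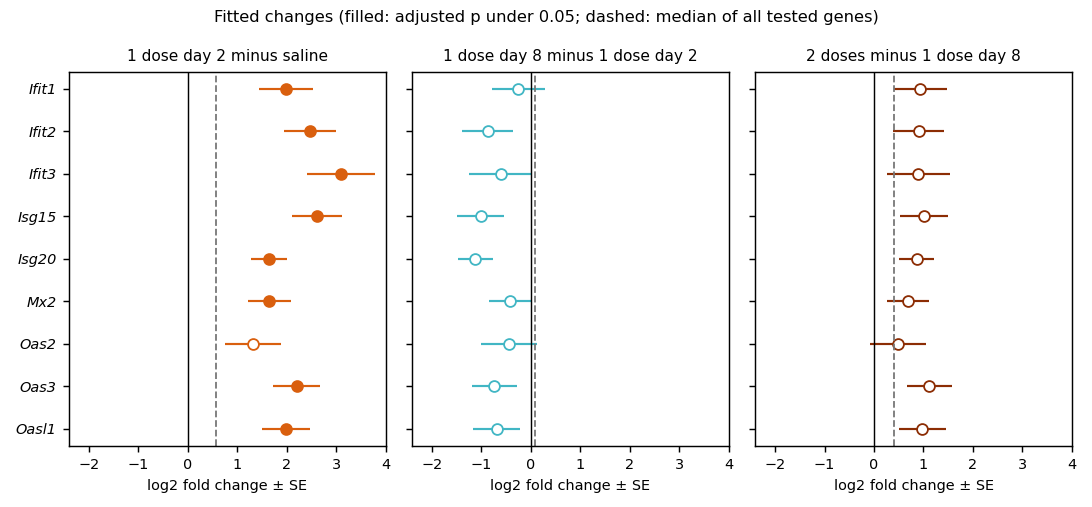
Fitted log2 fold changes with their SE for early single-dose minus saline, late minus early single-dose, and repeat-dose minus late single-dose tumors; filled points have an edgeR adjusted p under 0.05 and the dashed line is the median of all 729 genes tested. Values run from 1.32 to 3.10 in the first panel, from -1.12 to -0.25 in the second and from 0.48 to 1.12 in the third.

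The second comparison sets day 8 after a single dose against day 2. Late tumors were also 6 days older and came from other mice, so time since the dose and tumor age cannot be told apart. All 9 fitted values lay below 0 in late against early single-dose tumors, between -1.12 and -0.25 on the log2 scale, with a median of -0.69 beside 0.08 for all genes. Over the whole panel, 447 of the 729 genes lay above 0. None of the 9 passed the test, nor did any of the 729 genes (0%) with housekeeping scaling. At an unadjusted p under 0.05 there were 1 member (Isg20) and 57 genes. Beyond Isg15 and Isg20, no member had every late tumor below every early tumor, which was the case for 4.12% of all genes.

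Isg20 had 520 ± 198 scaled counts in late and 1131 ± 79 in early single-dose tumors (SD, n = 3 each), a log2 difference of -1.12 ± 0.36 SE (edgeR adjusted p = 0.276). Isg15 had 1107 ± 775 scaled counts in late and 2235 ± 154 in early single-dose tumors, a log2 difference of -1.01 ± 0.48 SE (edgeR adjusted p = 0.609). Ifit1 had the smallest difference, -0.25 ± 0.53 SE (edgeR adjusted p = 0.998), with 521 ± 436 scaled counts in late against 620.0 ± 49.4 in early single-dose tumors. The SD of the late tumors was smaller than the difference between the means for Isg20 and Isg15, and larger than it for Ifit1.

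The count of members that fell depended on the scaling. It was 1 (Isg20) with TMM or total-count scaling in edgeR, where 0.823% of all genes fell under either. It was 5 (Ifit2, Isg15, Isg20, Oas3 and Oasl1) in DESeq2 with its own size factors, where 5.21% of all genes fell, and 0 in DESeq2 with housekeeping size factors, where 1.1% of all genes fell and 2 members had an unadjusted p under 0.05.

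The late single-dose tumors differed among themselves more than any other group. The SD of a member's log2 value within the group had a median of 1.05 over the 9 members in late single-dose tumors, against 0.58 for all genes in the same tumors. It was 0.36 in repeat-dose, 0.20 in early single-dose and 0.52 in saline tumors. Tumor C was the highest and tumor B the lowest late tumor in 9 of 9 members, an order that 64.2% of all genes shared.

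Tumor by tumor, late tumor B had between 15.9% (Ifit3) and 38.2% (Mx2) of the early single-dose mean, and stood between 0.680-fold (Oas2) and 1.39-fold (Oas3) of the saline mean. Late tumor A had between 36.0% (Ifit2) and 64.9% (Oas2) of the early mean. Late tumor C lay between 63.5% (Isg20) and 162% (Ifit1) of it, above 100% for all members but Isg15 and Isg20. On the mean log2 value of the 9 members, late tumors A, B and C stood 1.08, 0.19 and 2.35 above the saline mean, against 2.19, 2.33 and 1.97 for early single-dose tumors A, B and C. The median log2 value of all genes within a tumor stood 1.25, 0.71 and 1.74 above its saline mean in late tumors A, B and C. This shift of the panel's middle is another measure than the median of the genes' own fold changes, 0.78 for late single-dose tumors against saline. By the shift, the members stood less far above saline than the panel's median in late tumors A and B, and further in C.

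**Figure D3:**
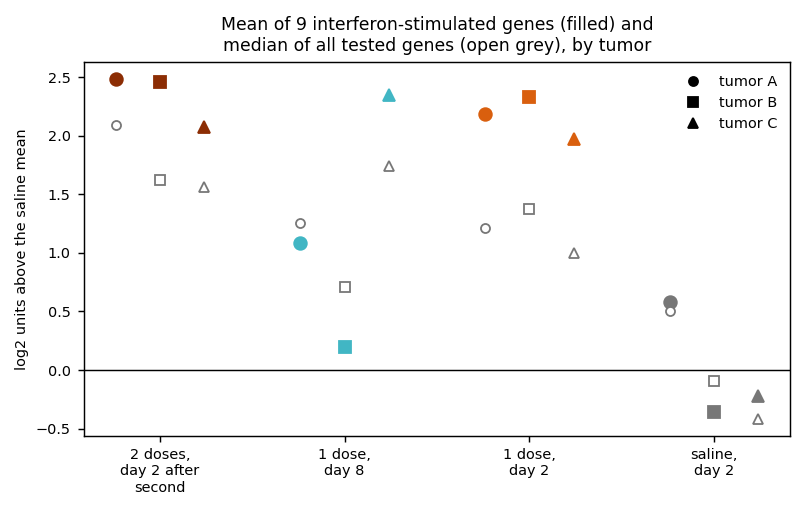
Mean log2 scaled count of the 9 members (filled) and median of all 729 genes (open grey) in each tumor, both as log2 units above their saline mean. Late single-dose tumors A and B are the treated tumors in which the members stand less far above saline than the panel's median log2 value.

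Leaving out late tumor C, the highest late tumor in 9 of 9 members, had to lower every difference between late and early single-dose tumors. Without it, the 9 differences lay between -1.92 and -1.09 on the log2 scale. Then 1 member, Ifit2, fell (-1.86, edgeR adjusted p = 0.0465), where 0.549% of all genes fell.

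The median log2 fold change of all genes was 0.78 in late single-dose tumors against saline. Of the 9 members 6 rose, where 39.1% of all genes rose. Those were Ifit3 (5.64-fold, log2 2.49 ± 0.67 SE, edgeR adjusted p = 0.0176), Ifit1, Ifit2, Isg15, Mx2 and Oas3. Isg20, Oas2 and Oasl1 had log2 differences of 0.52 ± 0.35, 0.87 ± 0.56 and 1.29 ± 0.48 SE and did not pass (edgeR adjusted p = 0.274, 0.249 and 0.0543). Oas3 alone had all late tumors above all saline tumors, against 42.5% of all genes.

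The call on the 6 held under some choices and failed under others. With steadier-housekeeping scaling or no filter 6 members rose, where 288 of 729 and 290 of 750 genes did. In DESeq2 with housekeeping size factors 7 rose, where 329 of 729 genes did. With only genes above background in all tumors 7 rose, where 285 of 562 genes did. With the negative mean subtracted 5 rose, where 234 of 729 genes did. With TMM scaling 1 member, Ifit3, rose, where 18.5% of all genes did, and Isg20 turned to -0.26. No member passed without saline tumor B, without saline tumor C, without late tumor C or with positive-control scaling in edgeR, where 11.8%, 14.8%, 14.7% and 5.21% of all genes rose and 5, 5, 2 and 1 members had an unadjusted p under 0.05. Without saline tumor A 8 members rose, where 40.9% of all genes did. In an edgeR fit of only the groups compared no gene of the 729 passed, the members among them, while 320 genes and 5 members had an unadjusted p under 0.05.

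The third comparison asks what a second dose added at the same tumor age. All 9 members had higher means in repeat-dose tumors than in late single-dose tumors, with log2 differences between 0.48 (Oas2) and 1.12 (Oas3) and a median of 0.90 beside 0.41 for all genes. The difference lay above 0 for 618 of the 729 genes. No member passed, and 0% of the 729 genes passed in either direction. At an unadjusted p under 0.05 there were 2 members and 77 genes. Isg20 was the member with all repeat-dose tumors above all late single-dose tumors (948 ± 124 against 520 ± 198 scaled counts, SD, n = 3 each), as 10.7% of all genes were, with a log2 difference of 0.87 ± 0.36 SE (edgeR adjusted p = 0.425). Oas3 had 319 ± 51 scaled counts in repeat-dose and 147 ± 112 in late single-dose tumors, a log2 difference of 1.12 ± 0.46 SE (edgeR adjusted p = 0.425).

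Late tumor C decided this count. Without it, 7 of the 9 members rose, where 13.2% of all genes rose, with log2 fold changes between 1.34 (Mx2) and 2.21 (Ifit3) and edgeR adjusted p between 0.0188 and 0.0380. Isg20 and Oas2 had 1.17 and 1.16 and did not pass (edgeR adjusted p = 0.0647 and 0.163). It was the highest late tumor in 9 of 9 members and was singled out from these same values, so leaving it out had to raise all 9 differences. That tumor carries no label that sets it apart from tumors A and B, and the values with and without it are given for that reason side by side.

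**Figure D4:**
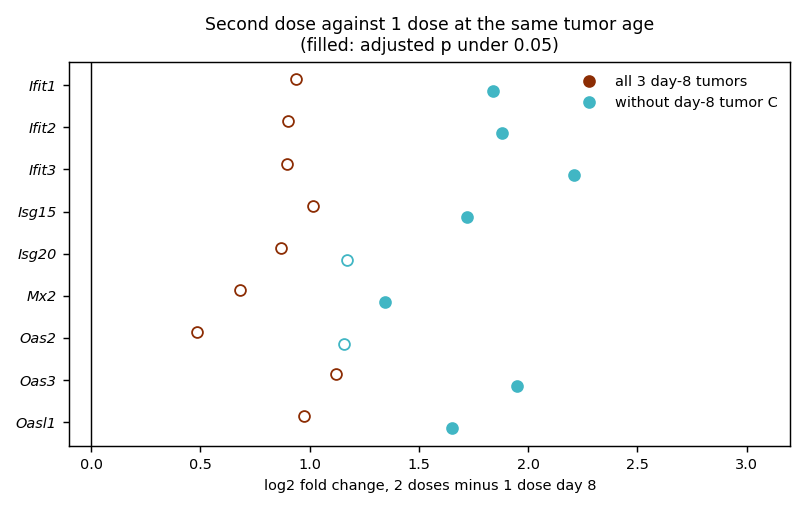
Log2 fold changes of repeat-dose minus late single-dose tumors, with all 3 late tumors (brown) and without late tumor C (blue); filled points have an edgeR adjusted p under 0.05. Every value is higher without tumor C, as it must be, because C was the highest late tumor in 9 of 9 members. Of the 9, 7 then pass, where 13.2% of all genes rose.

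Repeat-dose tumors stood at about the level of early single-dose tumors, the other group removed 2 days after cytokines. They were 6 days older, and the second dose and that age cannot be told apart here. None of the 9 members passed in edgeR, and none had an unadjusted p under 0.05, where 0% of all genes passed and 176 had an unadjusted p under 0.05. Isg15 had 2236 ± 248 scaled counts in repeat-dose and 2235 ± 154 in early single-dose tumors (SD, n = 3 each), a log2 difference of 0.00 ± 0.47 SE. Ifit1 had a higher mean in repeat-dose tumors (997 ± 288 against 620.0 ± 49.4 scaled counts, log2 0.69 ± 0.53 SE, edgeR adjusted p = 0.413). Isg20 had a lower one (948 ± 124 against 1131 ± 79 scaled counts, log2 -0.26 ± 0.35 SE, edgeR adjusted p = 0.656). The log2 difference lay above 0 for 8 of the 9 members and 622 of the 729 genes. The members' median difference was 0.26, and -0.23 relative to the median difference of all genes, which was 0.49. Signs near 0 depended on the scaling: with TMM, 1 of the 9 differences, that of Ifit1, stayed above 0.

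The second dose was also set against the first, as the difference between repeat-dose and late single-dose tumors minus the difference between early single-dose and saline tumors. All 9 members had a smaller second-dose effect, with differences between -2.21 (Ifit3) and -0.77 (Isg20) on the log2 scale and a median of -1.05 beside -0.22 for all genes. The second-dose effect was larger for 224 of the 729 genes. No member passed (0% of all genes did), and 2 members, Ifit3 and Isg15, had an unadjusted p under 0.05. Without late tumor C the members' median was -0.33.

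Other genes of the pathway gave the following counts in early single-dose against saline tumors, where 30.5% of all genes rose. The list of other interferon-stimulated genes had 18 members on the panel, of which 16 rose, with a median log2 fold change of 2.15. Among them Zbp1, a sensor of Z-form nucleic acid, rose by 3.84 ± 0.59 SE (edgeR adjusted p = 0.00316), Ifi35 by 2.30 ± 0.37 SE, and Usp18, which removes ISG15 from proteins, by 2.22 ± 0.47 SE. Ifitm2 and Ifi44l were the 2 that did not pass. In late against early single-dose tumors all 18 lay below 0, with a median of -0.51, and none passed.

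The genes of type I and type III interferons themselves did not follow the members. None of Ifna1, Ifna2, Ifna4, Ifnb1 and Ifnl2 passed in any comparison, and none had an unadjusted p under 0.05. Ifnb1 had 52.5, 13.2 and 58.2 scaled counts in repeat-dose tumors A, B and C, 19.8, 36.9 and 45.6 in late single-dose, 74.2, 16.2 and 16.9 in early single-dose, and 27.4, 14.9 and 41.7 in saline tumors. It was above background in 8 of 12 tumors, with raw counts between 10 and 82. Whether these genes bear on the members' levels was not tested. The Ifna genes are near-identical copies which a probe may not tell apart, and counts on day 2 do not cover the hours before.

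Interferon-gamma RNA did differ. Ifng had 717, 283 and 538 scaled counts in repeat-dose tumors A, B and C, 78.1, 40.9 and 190.1 in late single-dose, 123, 193 and 113 in early single-dose, and 26.0, 17.1 and 26.9 in saline tumors. It rose in early single-dose against saline tumors (log2 2.61 ± 0.56 SE, edgeR adjusted p = 0.00761). Among late tumors it had the order of the members, C over A over B, as 64.2% of all genes did. Ifng had a higher mean in repeat-dose than in early single-dose tumors. The log2 difference of 1.84 ± 0.53 SE did not pass (edgeR adjusted p = 0.103), and the members stood near their early level. In early and late single-dose tumors against saline, 30.5% and 39.1% of all genes rose. Of 23 genes of the interferon-gamma axis tested, Ifng included, 21 rose in early single-dose tumors and 22 in late single-dose tumors against saline, with medians of 3.09 and 2.66 on the log2 scale. In late against early single-dose tumors their median was -0.32, beside -0.69 for the members.

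Receptors and signal carriers split by gene. In early single-dose against saline tumors 4 of 8 rose, where 30.5% of all genes did. Among the 4 were Stat2 (log2 2.15 ± 0.48 SE), Irf7 (2.52 ± 0.63 SE) and Ifnar2, a chain of the type I interferon receptor (0.94 ± 0.26 SE, edgeR adjusted p = 0.0196). The other receptor chain, Ifnar1, had a difference of -0.19 ± 0.21 SE and Irf3 one of -0.12 ± 0.16 SE; neither passed, nor did Jak1 and Tyk2. Irf1, the factor that binds ISRE motifs after interferon-gamma, rose by 3.02 ± 0.48 SE (edgeR adjusted p = 0.00316). Of 15 sensors and adaptors that induce interferon, 9 rose, beside the same 30.5% of all genes. Among the 9 were Tmem173, which encodes STING (1.33 ± 0.26 SE), and Myd88 (1.29 ± 0.29 SE). The lists share genes, so their counts are not separate. Stat2 and Irf7 of the receptor and signal genes also stood among the other interferon-stimulated genes, as did the inducers Ddx58, Ifih1 and Zbp1. Irf3 stood among both the receptor and signal genes and the inducers. In late single-dose against saline tumors 14 of the 18 other interferon-stimulated genes, 4 of the 8 receptor and signal genes and 8 of the 15 inducers rose, where 39.1% of all genes did. No gene of these lists passed edgeR's test in the comparisons among treated groups.

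The 9 members moved together from tumor to tumor. Over the 12 tumors the Pearson correlation of log2 values between any 2 members ran from 0.864 to 0.988 (36 pairs), and within groups, after the group means were removed, from 0.662 to 0.978. These correlations are descriptions; all values share the tumor's scaling factor and its cell content. The 8 other panel genes most like the mean of the members were Stat2 (Pearson 0.988, Spearman 0.979), Ifih1, Rsad2, Ddx58, Casp8, Xaf1, Usp18 and Irf7, the last at 0.981. Over the 720 other genes tested the median was 0.740. Isg20 and Oas2 were the members least like the mean, at 0.925 and 0.921.

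Cell markers moved with the same tumors. In a bulk tumor, fewer cells of a type and less RNA per cell cannot be told apart. Ptprc, the marker of all leukocytes, had 1787, 1179 and 794 scaled counts in repeat-dose tumors A, B and C, 840, 366 and 1158 in late single-dose, 506, 921 and 683 in early single-dose, and 304, 157 and 32.5 in saline tumors. The order among late tumors was that of the members, C over A over B, which 64.2% of all genes shared. The 5 T cell markers summed to between 1544 and 1819 scaled counts in repeat-dose, 763 and 2106 in late single-dose, 456 and 665 in early single-dose, and 257 and 546 in saline tumors, and all 5 were above background in every tumor. The 5 macrophage markers on the panel summed to between 7002 and 19608 in repeat-dose, 4072 and 10037 in late single-dose, 3408 and 6459 in early single-dose, and 694 and 2850 in saline tumors. T cell marker sums of early single-dose tumors overlapped those of saline tumors.

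NK cell markers (Ncr1 and Klrb1c, 2 of 3 listed) summed to between 148 and 309 in repeat-dose, 132 and 220.5 in late single-dose, 271 and 340.4 in early single-dose, and 80.6 and 136 in saline tumors. Ncr1 averaged 181 ± 70 in repeat-dose, 125 ± 40 in late single-dose, 230 ± 44 in early single-dose and 49.4 ± 17.5 in saline tumors (SD, n = 3 each). Klrb1c differed less, with 70.8 ± 30.5, 63.3 ± 19.9, 79.1 ± 41.5 and 55.2 ± 13.97 in the same group order, and was below background in repeat-dose tumor C. Of the markers of plasmacytoid dendritic cells, strong makers of type I interferon, Il3ra and Ccr9 were measured, 2 of 4 listed, with sums between 666 and 907 in repeat-dose, 367 and 781 in late single-dose, 479.9 and 606 in early single-dose, and 245 and 321 in saline tumors. The differences in that sum were those of Il3ra, with 699.6 ± 127 in repeat-dose, 473 ± 204 in late single-dose, 482 ± 59 in early single-dose and 219 ± 40 in saline tumors (SD, n = 3 each). Ccr9 had 58.8 ± 29.8, 71.1 ± 26.0, 71.5 ± 40.3 and 54.2 ± 6.0 in the same order, with overlapping groups. Of 7 genes listed for melanoma cells, 2 (S100b and Mcam) were measured, and neither is particular to melanoma. Their sum ran from 2494 to 2691 in repeat-dose, 2476 to 2772 in late single-dose, 2292 to 2678 in early single-dose, and 2283 to 3140 in saline tumors. The sum joins 2 genes with opposite orders of their group means. S100b averaged 1619 ± 178 in repeat-dose, 1264 ± 668 in late single-dose, 843 ± 82 in early single-dose and 678 ± 201 in saline tumors, and Mcam averaged 961 ± 143, 1341 ± 516, 1601 ± 254 and 2009 ± 607 (SD, n = 3 each). The share of melanoma cells can therefore not be read from them. The part of these cell types in the members' levels was not tested.

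**Figure D5:**
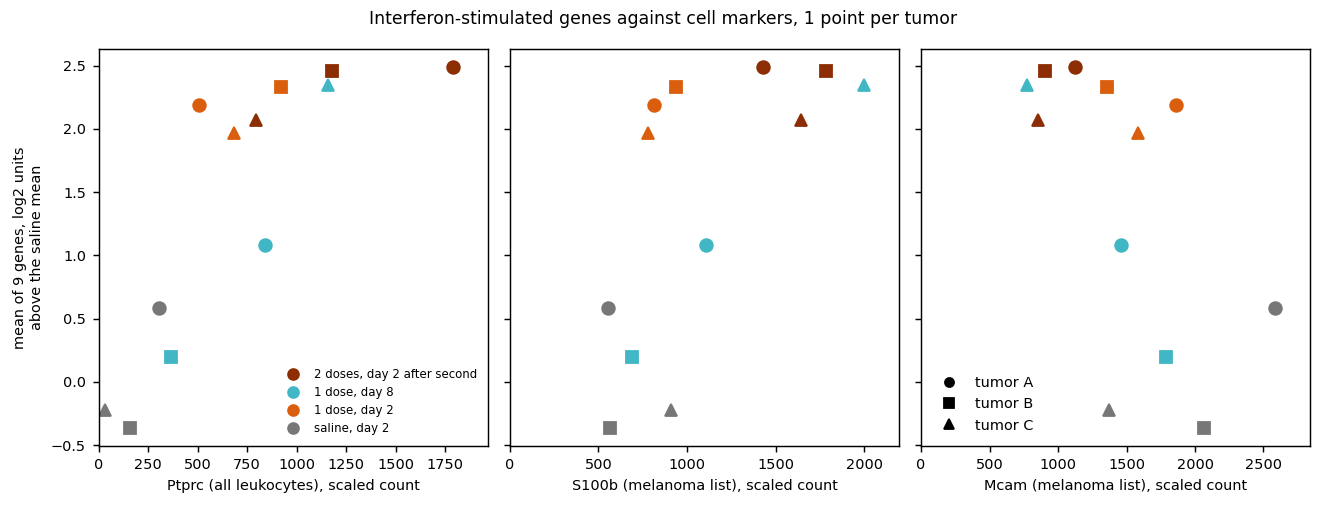
Mean log2 value of the 9 members above the saline mean against the scaled counts of Ptprc (left), S100b (middle) and Mcam (right), with 1 point per tumor. Ptprc runs from 32.5 to 1787 and is higher in tumors with high members, while early single-dose tumor A pairs a Ptprc count of 506 with members 2.19 log2 units above saline. S100b is highest and Mcam lowest on average in repeat-dose tumors, at 1619 and 961.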

How the data were processed

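RNA was counted in 12 tumors on an nCounter immune panel for mouse (750 genes, 20 housekeeping probes, 6 positive and 8 negative controls). The deposited files of single tumors held raw, unscaled counts of each probe, per the file headers. The deposited table of the series held signal that the authors had normalized with nSolver, per the labels' design text, with a version not given in the sources used here. Its gene values were the raw count times 1 factor per tumor, to within 0.00882%, as checked for genes with larger raw counts. Low counts were left out of that check. The table served as an alternative.

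Background was set per tumor at 2 SD above the mean negative control. Genes above it in at least 3 tumors were tested, 729 in all, and 21 were left out. The tests were edgeR 4.0.16 quasi-likelihood fits (R 4.3.3) of the raw counts in 4 groups, with library sizes from the housekeeping geometric mean and Benjamini-Hochberg adjustment over the 729 genes at 0.05. Each p-value was computed here, none by the authors. The SE of a log2 fold change is its size divided by the root of its F statistic. The chi-square per degree of freedom between tumors of 1 group ran from 23.9 to 152, beyond sampling noise, and each tumor was counted once. The precision rests on 3 tumors a group. The members and the lists were chosen with earlier results of these data known. All members were named in each comparison; other genes were fixed by name (1 of them is not reported here), or were the 3 of a list with the smallest p in the joint test, or the 8 most correlated with the members' mean of log2(scaled count + 1). Alternatives were TMM, total-count, positive-control and steadier-housekeeping scaling, DESeq2 1.42.0, limma 3.58.1, other filters, the replicate letter as a block, a fit limited to the groups compared, the negative mean subtracted, and each tumor left out. Promoters and gene types came from RefSeq tables of GRCm38.p6.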

Additional observations from a re-analysis of the deposited data

How the results depend on the processing

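In early single-dose against saline tumors no member changed direction under any alternative run. The 8 members past the threshold became 4 with positive-control scaling, 6 with total-count scaling and 5 to 9 when 1 tumor was left out. In late against early single-dose tumors the count of 0 became 1 with TMM or total-count scaling, 5 in DESeq2 with its own size factors, and 0 to 1 when 1 tumor was left out; Ifit1 then ran from -1.15 to 0.17. In late single-dose against saline tumors the count of 6 became 1 with TMM, total-count scaling or DESeq2's own size factors, 2 with limma on the authors' values, 2 with the replicate block, 0 with positive-control scaling or only the groups compared, and 0 to 8 when 1 tumor was left out. It stayed at 6 with steadier-housekeeping scaling or no filter. It was 7 in DESeq2 with housekeeping size factors or with only genes above background in all tumors, and 5 with the negative mean subtracted. There Isg20 turned to -0.26 (TMM), -0.49 (total count), -0.26 (positive controls) and -0.27 (DESeq2, own factors), and Oas2 to -0.22 (total count). For repeat-dose minus late single-dose tumors the count of 0 became 7 without late tumor C (0 to 7 over the tumors left out), and Oas2 turned to -0.00909 (total count) and -0.0625 (positive controls). The joint count of 8 became 2 with positive-control scaling, 6 with total-count scaling and 3 to 8 when 1 tumor was left out. The count stayed at 0 for repeat-dose against early single-dose tumors and for the second-dose minus the first-dose effect under every alternative run.

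For repeat-dose minus early single-dose tumors the log2 differences lay near 0 and their signs followed the scaling. Under TMM they turned to -0.52 (Ifit2), -0.25 (Ifit3), -0.56 (Isg15), -0.30 (Mx2), -0.52 (Oas2), -0.19 (Oas3) and -0.31 (Oasl1). Under total-count scaling they turned to -0.61, -0.34, -0.64, -0.39, -0.62, -0.25 and -0.39 in the same gene order. Under positive-control scaling they turned to -0.97, -0.72, -1.03, -0.76, -0.93, -0.68 and -0.70 for those genes and to -0.26 for Ifit1. In DESeq2 with its own size factors they turned to -0.48, -0.21, -0.52, -0.26, -0.48, -0.15 and -0.26. Isg15 turned to -0.00368 with limma and, with the negative mean subtracted, to -0.00964, as Oas2 did to -0.00845. With 1 tumor left out, Ifit2 ran from -0.17 to 0.20, Isg15 from -0.0629 to 0.0878, Oas2 from -0.19 to 0.21 and Oasl1 from -0.0448 to 0.48. The cause of these shifts was not tested.

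No label says that the letters pair tumors, and the main fits did not pair them. Deviations from group means of same-lettered tumors correlated between -0.650 and 0.596 over 18 pairs, and 2 tumors correlated best with their own letter. These values cannot tell whether a letter marks a shared batch or day. With the replicate block, 8 members passed in early single-dose against saline tumors and 8 in the joint test, as without it, and 2 rather than 6 in late single-dose tumors against saline. Groups of 3 limit what could be detected, Mx1 stood below background in every tumor, and the scaled counts of repeat-dose tumor C rest on the lowest total count, 392596.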
